A study of Mus musculus with 15 samples.

Results

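The 9 genes described here encode H6pd, Hsd11b1 and the cytosolic enzymes of the pentose phosphate pathway, which in the mouse are G6pdx, Pgls, Pgd, Rpia, Rpe, Tkt and Taldo1. They were taken by gene symbol from a count table of 21702 protein-coding genes, and all 9 were among the 12172 genes with enough reads to be tested. Bulk RNA-seq was carried out on livers of wild-type female mice of strain C57BL/6 (C57BL/6N in the study's methods) that had received an adeno-associated virus of serotype AAV8 by tail vein injection. The virus was given in the non-pregnant (NP) state. The AAV8-null virus carried no cDNA, and mice given it were examined while NP, at 8 days post-coitum (8 dpc, mid-pregnancy) or at 16 dpc (late pregnancy). The AAV8-p21 virus carried the cDNA of p21, the cell cycle inhibitor encoded by Cdkn1a, under the hepatocyte-specific TBG promoter, and mice given it were examined at 8 dpc and 16 dpc. Each of the 5 groups had 3 livers, all libraries came from virus-treated mice, and there was no NP group with AAV8-p21.

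In the cytosol, G6pdx oxidises glucose 6-phosphate, Pgls opens the resulting lactone and Pgd oxidises 6-phosphogluconate, and both oxidations reduce NADP to NADPH. Rpia and Rpe then interconvert the pentose phosphates, and Tkt and Taldo1 rearrange them back into sugars of glycolysis. H6pd carries out the oxidation and the lactonase step inside the endoplasmic reticulum, where the NADPH it makes is used by Hsd11b1, the hepatic reductase that turns inactive 11-dehydrocorticosterone into corticosterone, the main glucocorticoid of the mouse.

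Of the 9 genes, H6pd, Hsd11b1 and Pgd were higher at 16 dpc than in NP livers. The sequences before their RefSeq starts are shown as a description. Each is the 250 bases before a RefSeq start of the gene in build GRCm38.p6, all on the minus strand. Pgd had 2 such windows, of which the first is shown and counted. The CCAAT box (CCAAT or ATTGG on the other strand) and the GC box (GGGCGG) are in capitals.
H6pd, chr4:150003237-150003486: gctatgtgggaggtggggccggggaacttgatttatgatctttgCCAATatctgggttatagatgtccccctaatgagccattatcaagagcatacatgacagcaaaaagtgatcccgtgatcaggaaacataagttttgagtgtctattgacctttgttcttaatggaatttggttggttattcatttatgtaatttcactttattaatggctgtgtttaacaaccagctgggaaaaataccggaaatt
Hsd11b1, chr1:193242361-193242610: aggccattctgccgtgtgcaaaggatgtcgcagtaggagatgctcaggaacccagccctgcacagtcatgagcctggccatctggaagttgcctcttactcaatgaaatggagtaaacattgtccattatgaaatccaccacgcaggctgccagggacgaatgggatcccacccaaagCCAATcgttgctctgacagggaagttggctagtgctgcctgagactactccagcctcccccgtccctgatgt
Pgd, chr4:149166706-149166955: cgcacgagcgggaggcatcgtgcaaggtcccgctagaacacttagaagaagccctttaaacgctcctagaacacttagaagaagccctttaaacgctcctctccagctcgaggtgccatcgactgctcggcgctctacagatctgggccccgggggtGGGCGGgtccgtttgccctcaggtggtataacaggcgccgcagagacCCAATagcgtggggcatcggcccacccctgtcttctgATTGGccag
The H6pd and Hsd11b1 windows each held 1 CCAAT box and no GC box, whereas the Pgd window held 2 CCAAT boxes and 1 GC box. A GC box was present in the windows of all 7 genes other than H6pd and Hsd11b1, against 32.7% of all 32851 RefSeq windows of this length searched on both strands. A CCAAT box was present in the windows of 4 genes, H6pd, Hsd11b1, Pgd and Taldo1, against 33.8% of all windows. The letters AGAACA, part of the element bound by the glucocorticoid receptor, were found for H6pd and Pgd (16.1% of all windows), and the antioxidant response core TGACNNNGC for Hsd11b1 and G6pdx (10.2%). No window of the 9 genes held TATAAA or CACGTG. The GC content was 38.8% for H6pd, 54.4% for Hsd11b1 and 60.4% for Pgd, and 52.4% over all windows. The Hsd11b1 window lies wholly within a GENCODE exon and the H6pd window within the longer GENCODE gene, and the last 66 bases of the Pgd window, which hold both of its CCAAT boxes, are in a GENCODE exon. All 3 genes thus have annotated starts further upstream. The H6pd and Hsd11b1 windows lie inside their GENCODE genes and cannot be set against the other windows as promoters. These matches describe the windows only.

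In GENCODE M21 on GRCm38, H6pd (ENSMUSG00000028980) spans chromosome 4 from 149979475 to 150009023 and Pgd (ENSMUSG00000028961) spans the same chromosome from 149149991 to 149166771, both on the minus strand. Hsd11b1 (ENSMUSG00000016194) spans chromosome 1 from 193221634 to 193264075 and G6pdx (ENSMUSG00000031400) spans chromosome X from 74409483 to 74429194, also on the minus strand. The exons of H6pd, Hsd11b1, Pgd, Taldo1 and Rpia overlapped no other gene. G6pdx shared 418 exon bases with Ikbkg on the opposite strand, Rpe shared 558 with Kansl1l on the opposite strand and Pgls shared 776 with Fam129c on the same strand. The strand setting of the counting is not given in the sources used here, so counts of these 3 genes are less certain.

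The libraries held 12280709 to 17615185 counted reads. Cdkn1a, the gene carried by the virus, was at 3.29 to 127 CPM (the read count scaled to a common library size) in AAV8-null livers and at 347 to 1664 CPM in AAV8-p21 livers. Albumin (Alb) took 7.9% to 12.9% of reads in NP and 8 dpc livers and 20.5% to 27.8% at 16 dpc. CPM were scaled by TMM factors, which ranged from 0.682 to 1.25. The hepatocyte markers Alb, Apoa1, Ttr, Cps1, Asgr1 and Hnf4a were detected in every group. Their summed level was 73720 to 128300 CPM in NP and 8 dpc livers and 269600 to 431900 CPM at 16 dpc, most of it Alb. In whole liver, fewer cells of a type and less RNA per cell cannot be told apart.

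To place the 9 genes against each other, levels were compared per length as CPM per kilobase of exon (RPKM). The order of their group means was the same in all 5 groups, with Hsd11b1 highest, then H6pd, Taldo1, Tkt, Pgls, Rpe, Pgd, G6pdx and Rpia. In NP livers Hsd11b1 was at 157 ± 22.6 RPKM and H6pd at 57.4 ± 2.08 RPKM (SD, n = 3), above 97.9% and 94.7% of the tested genes. The cytosolic counterpart of H6pd was far lower, with G6pdx at 1.15 ± 0.263 RPKM, above 30.2% of the tested genes. Taldo1 was at 32.9 ± 15.1 RPKM, Tkt at 11.9 ± 3.78, Pgls at 9.21 ± 2.49, Rpe at 5.65 ± 0.835, Pgd at 2.95 ± 1.04 and Rpia at 0.8 ± 0.0808. In NP livers only the neighbours Tkt and Pgls overlapped. At 8 dpc with AAV8-null only Pgls and Rpe overlapped. At 16 dpc the ranges of Tkt and Pgls, of Pgls and Rpe, of Rpe and Pgd, and of G6pdx and Rpia overlapped with either virus. At 8 dpc with AAV8-p21 the ranges of H6pd and Taldo1 overlapped, as did those of Pgls and Rpe, of Rpe and Pgd, and of G6pdx and Rpia. H6pd made up 95.4% to 99.6% of the summed H6pd and G6pdx level per length in the 15 livers.

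**Figure D1:**
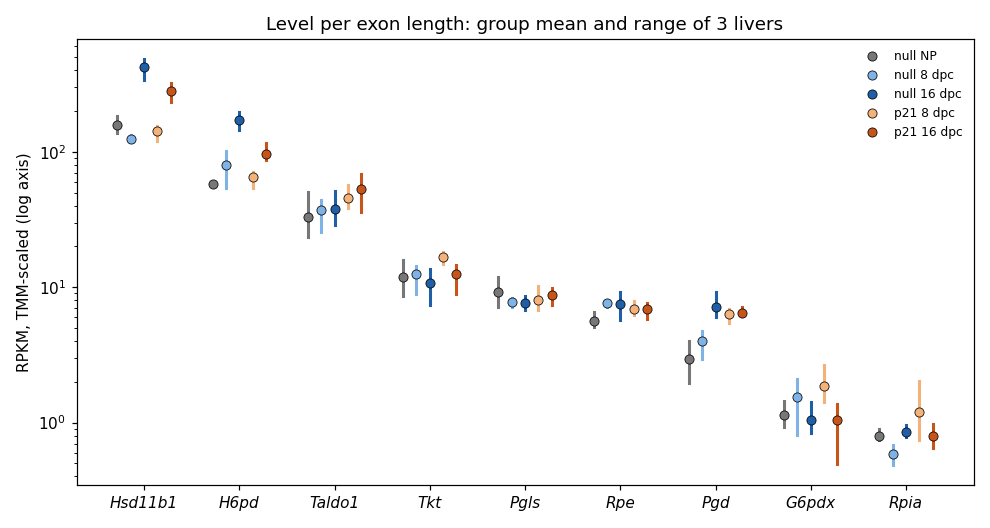
Level per exon length (RPKM, TMM-scaled, log axis) of the 9 genes in the 5 groups, with points for the group means and bars from the lowest to the highest of 3 livers. Hsd11b1 and H6pd have the highest group means in every group, the range of H6pd overlapping that of Taldo1 at 8 dpc with AAV8-p21, and both stand highest at 16 dpc with AAV8-null (423 and 171 RPKM), while the group means of G6pdx and Rpia lie between 0.586 and 1.87 RPKM.

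Late pregnancy was compared with the NP state in AAV8-null livers. H6pd, Hsd11b1 and Pgd rose by 16 dpc, 2.98-fold, 2.69-fold and 2.4-fold, and the other 6 genes did not pass the test. H6pd was at 295, 293 and 313 CPM in the NP livers and at 1025, 760 and 905 CPM at 16 dpc. All 3 livers at 16 dpc lay above all NP livers, among which H6pd varied little. The log2 fold change was 1.58 ± 0.235 (SE; adjusted p = 0.00116, edgeR quasi-likelihood test with Benjamini-Hochberg adjustment, as for all adjusted p-values below). Hsd11b1 was at 774, 587 and 642 CPM in NP livers and at 2051, 1915 and 1432 CPM at 16 dpc, again without overlap. Its log2 fold change was 1.43 ± 0.207 (adjusted p = 0.000878). Pgd, which carries out the second NADPH-forming step, was at 25.9, 12.6 and 18.7 CPM in NP livers and at 59.6, 39 and 38.5 CPM at 16 dpc. Its groups did not overlap and its log2 fold change was 1.26 ± 0.265 (adjusted p = 0.0113). These 3 of 9 genes stand beside 6.52% of all tested genes called in this comparison, with 3.71% higher. Without overlap between the groups were 3 of 9 genes, beside 24.6% of all tested genes.

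G6pdx, the entry enzyme of the cytosolic branch, was at 4.43, 3.29 and 2.87 CPM in NP livers and at 4.37, 2.75 and 2.58 CPM at 16 dpc, so that the groups overlapped. Its log2 fold change was −0.13, with a 95% interval from −1.04 to 0.78. The counts behind it were low, 29 to 64 reads per library in these groups, and the lowest count in any library, 21 reads, carries a counting error of 21.8%. Pgls (log2 fold change −0.27), Taldo1 (0.20), Tkt (−0.15), Rpia (0.09) and Rpe (0.41) did not pass the test (adjusted p = 0.244 to 0.916), and their groups overlapped. The highest NP liver was the library labelled 1 for 8 of the 9 genes, H6pd being the exception. How often this held over all tested genes was not computed.

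The scaling set the size of these rises. With libraries scaled by total counts in place of TMM, the median over all tested genes moved by −0.68 on the log2 scale, and H6pd and Hsd11b1 were still called at 0.91 and 0.74 (adjusted p = 0.00791 and 0.00507), that is, above the lowered median. Pgd was then at 0.59 (adjusted p = 0.0573) and G6pdx at −0.81 (adjusted p = 0.115), neither called. Pgls (−0.95, adjusted p = 0.00317) and Tkt (−0.84, adjusted p = 0.0146) were called lower. Without the NP liver labelled 2, Pgd was at 1.04 and missed the threshold (adjusted p = 0.0544), as it did in a fit of these 2 groups alone (1.26, adjusted p = 0.0699). Markers of other cell types also differed in this comparison. The summed neutrophil markers were at 0.548 to 1.73 CPM in NP livers and at 5.25 to 29.1 CPM at 16 dpc. All 3 tested markers (S100a8, S100a9, Retnlg) rose, from 1 to 15 reads per library in NP livers. Ly6g was at 0 in both groups, and Mpo and Elane had at most 5 reads per library and were not tested. The part of these markers in the result was not tested. Of the hepatocyte markers, Alb, Apoa1 and Asgr1 rose and Ttr fell, and 2 of 4 tested erythroid markers (Hbb-bs and Alas2) rose, their sum being 44.3 to 93 CPM in NP livers and 105 to 170 CPM at 16 dpc. Of 6 stellate cell markers, Lrat fell. The summed cholangiocyte markers (8.41 to 17.5 CPM against 19.9 to 31.4 CPM in NP livers) and lymphocyte markers (0.916 to 2.23 CPM against 3.35 to 4.16 CPM) were lower without overlap, and none of their tested members was called. The part of these in the result was likewise not tested.

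**Figure D2:**
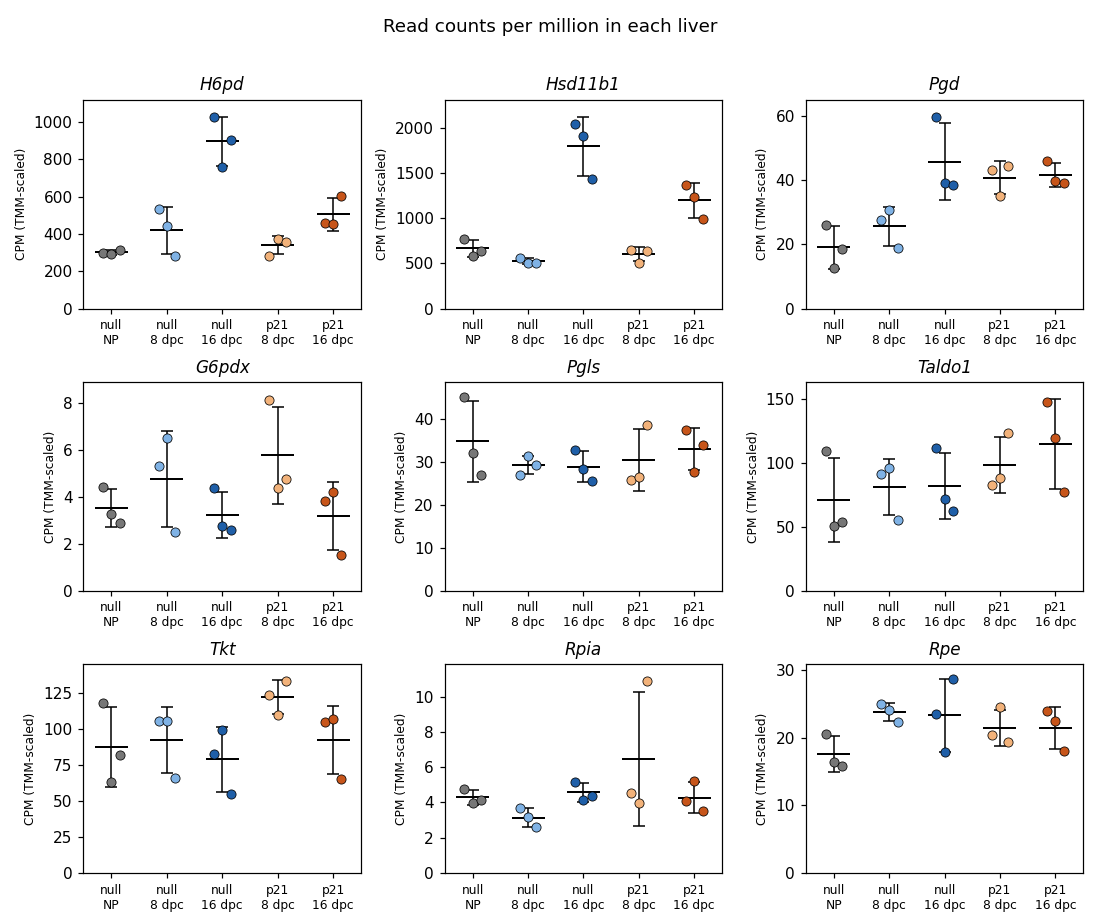
CPM (TMM-scaled) of each gene in each of the 15 livers, with black lines for the group mean and bars for 1 SD (n = 3). H6pd and Hsd11b1 are highest at 16 dpc with AAV8-null (760 to 1025 and 1432 to 2051 CPM). Pgd is at 34.9 to 44.3 CPM in AAV8-p21 livers at 8 dpc, not called against AAV8-null (adjusted p = 0.821, edgeR), and AAV8-p21 had no NP group.

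Mid-pregnancy was compared with the NP state to ask when the change occurred. No gene of the 9 was called at 8 dpc, and 0 of 12172 genes (0%) were called by edgeR, with 803 at an unadjusted p under 0.05 and 73 called by DESeq2. H6pd was at 531, 443 and 282 CPM at 8 dpc. In 2 livers it was above the NP range and in 1 below it, and the log2 fold change was 0.48 with an interval from −0.01 to 0.97. Hsd11b1 was at 561, 505 and 509 CPM, all below the NP livers, at a log2 fold change of −0.35 (adjusted p = 0.914). Rpe was at 22.3 to 25 CPM, all above the NP range of 15.8 to 20.6 CPM (0.44, adjusted p = 0.679). Rpia was at 2.6 to 3.67 CPM, all below the NP range of 3.96 to 4.78 CPM (−0.45, adjusted p = 0.987). These 3 of 9 genes without overlap stand beside 10.2% of all tested genes. The summed neutrophil markers were at 4.94 to 14.6 CPM at 8 dpc against 0.548 to 1.73 CPM in NP livers, and the summed stellate cell markers at 103 to 165 CPM against 196 to 214 CPM, both without overlap. All 6 endothelial and all 6 stellate cell markers had fitted values below NP, no tested marker was called, and their part was not tested.

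Between 8 dpc and 16 dpc with AAV8-null, Hsd11b1 rose 3.43-fold and H6pd rose 2.14-fold, and these 2 of 9 genes stand beside 6.87% of all tested genes called, with 3.16% higher. For Hsd11b1 the log2 fold change was 1.78 ± 0.209 (adjusted p = 0.000211), and for H6pd it was 1.10 ± 0.232 (adjusted p = 0.0132). Pgd was above all 8 dpc livers in all 3 livers but was not called (0.83 ± 0.262, adjusted p = 0.07), whereas DESeq2 called it (0.84, adjusted p = 0.035). Rpia was also without overlap (0.54, adjusted p = 0.37), which makes 4 of 9 genes beside 25.4% of all tested genes. The call for H6pd was lost without the 8 dpc liver labelled 2 (adjusted p = 0.0514), in a fit of these 2 groups alone (1.07, adjusted p = 0.0882) and under total-count scaling (0.40, adjusted p = 0.157). Hsd11b1 was called in all of these fits, at 1.06 under total-count scaling (adjusted p = 0.011 at most over all fits with no library left out). Between these groups 3 of 6 hepatocyte markers (Alb, Apoa1, Asgr1), 2 of 6 endothelial markers (Clec4g, Pecam1) and 1 of 6 stellate cell markers (Dcn) also rose. The sums of these lists and of the erythroid markers were higher at 16 dpc without overlap, those of the cholangiocyte and lymphocyte markers were lower without overlap, and their part was not tested.

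**Figure D3:**
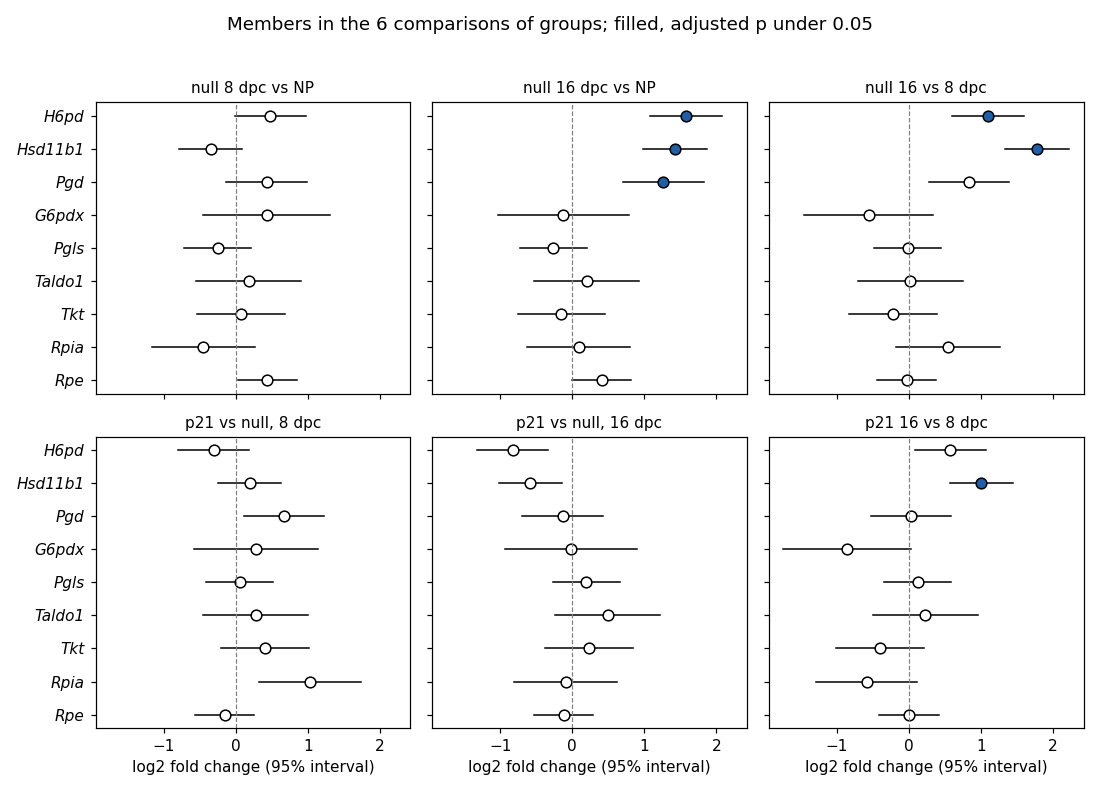
Log2 fold changes of the 9 genes with 95% intervals in the 6 comparisons of groups, filled where the adjusted p was under 0.05. Filled points are H6pd, Hsd11b1 and Pgd at 16 dpc against NP, H6pd and Hsd11b1 at 16 against 8 dpc with AAV8-null, and Hsd11b1 at 16 against 8 dpc with AAV8-p21.

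The effect of hepatocyte p21 was asked at each stage by comparing AAV8-p21 with AAV8-null livers. At 16 dpc none of the 9 genes was called by edgeR, beside 0.0739% of all tested genes (9 called, and 1189 at an unadjusted p under 0.05). H6pd was at 456, 453 and 604 CPM with AAV8-p21 and Hsd11b1 at 1373, 1242 and 990 CPM, and for both genes the 3 livers lay under the whole AAV8-null range. The log2 fold change of H6pd was −0.83 with an interval from −1.32 to −0.34 (adjusted p = 0.224, unadjusted p = 0.00278). That of Hsd11b1 was −0.58 with an interval from −1.02 to −0.15 (adjusted p = 0.349, unadjusted p = 0.0122). DESeq2 called H6pd at −0.83 (adjusted p = 0.0419) among 135 genes, and did not call Hsd11b1. The 2 of 9 genes without overlap stand beside 13.7% of all tested genes. The other 7 genes overlapped, with log2 fold changes from −0.14 for Pgd to 0.49 for Taldo1.

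None of 9 circadian clock genes was called between these groups (adjusted p = 0.244 to 0.672). As a measure of the clock, the mean log2 level of Ciart, Dbp, Nr1d1, Nr1d2, Per3 and Tef was subtracted from that of Arntl, Clock and Npas2. At 16 dpc the difference was 1.82, −1.24 and 1.5 with AAV8-null and −4.45, −4.33 and −2.58 with AAV8-p21. It was 0.39, −3.97 and −4.05 in NP livers, while at 8 dpc it was 1.16, 1.28 and −1.04 with AAV8-null and 2.66, 2.27 and −2.88 with AAV8-p21. All 3 AAV8-p21 livers at 16 dpc were below all AAV8-null livers of that stage, and the part of this in the values of H6pd and Hsd11b1 was not tested. At 16 dpc and at 8 dpc against NP with AAV8-null, Arntl, Clock and Npas2 were fitted higher and the other 6 clock genes lower. From 8 to 16 dpc with AAV8-p21 those 3 were fitted lower and the other 6 higher. None was called, and the part of the clock in these comparisons was not tested. Among cell type markers, the summed neutrophil level was 5.25 to 29.1 CPM with AAV8-null and 2.21 to 4.14 CPM with AAV8-p21 at 16 dpc, and the summed cholangiocyte level 8.41 to 17.5 CPM and 19.7 to 43.1 CPM. Most of the cholangiocyte sum was Spp1 (7.25 to 13.99 CPM and 15.95 to 39.47 CPM), and 4 of 5 tested cholangiocyte markers were fitted higher with AAV8-p21. The summed hepatocyte level was 307500 to 431900 CPM with AAV8-null and 269600 to 302200 CPM with AAV8-p21. Most of it was Alb, at 284500 to 408500 CPM and 244700 to 283300 CPM. Of the 6 hepatocyte markers, 3 were fitted higher and 3 lower with AAV8-p21. The 3 sums were without overlap, no tested marker was called, and their part in the values was not tested either.

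At 8 dpc none of the 9 genes was called with AAV8-p21 against AAV8-null (3 of all tested genes called, 0.0246%, and 631 at an unadjusted p under 0.05). Pgd was at 43.2, 34.9 and 44.3 CPM with AAV8-p21 against 27.5, 30.6 and 18.9 CPM with AAV8-null. Its groups did not overlap, and its log2 fold change was 0.67 with an interval from 0.11 to 1.23 (adjusted p = 0.821). Rpia was at 4.54, 4 and 10.9 CPM with AAV8-p21 against 3.67, 3.16 and 2.6 CPM with AAV8-null, at a log2 fold change of 1.03 (adjusted p = 0.633). One AAV8-p21 liver, the library labelled 3, stood far above the rest for Rpia, and without it the value was 0.44. Tkt was at 110 to 133 CPM against 66 to 106 CPM, also without overlap (0.41, adjusted p = 1). These 3 of 9 genes stand beside 10% of all tested genes. Marker sums were also without overlap, at 2.0 to 3.26 CPM with AAV8-p21 against 4.94 to 14.6 CPM with AAV8-null for neutrophils, 36.3 to 53.6 against 18.1 to 26.8 for cholangiocytes, 171 to 246 against 103 to 165 for stellate cells, 104 to 177 against 85.4 to 97.8 for erythroid cells and 106000 to 128300 against 73720 to 93360 for hepatocytes. Most of the hepatocyte sum was Alb (96940 to 116900 against 65700 to 83800 CPM), and 3 of the 6 hepatocyte markers were fitted higher and 3 lower. Most of the cholangiocyte sum was Spp1 (31.9 to 49.66 against 14.2 to 23.16 CPM), with 4 of 5 tested cholangiocyte markers fitted higher. No tested marker was called, and the part of these sums in the values was not tested. H6pd (−0.31, interval −0.80 to 0.19) and Hsd11b1 (0.19, interval −0.24 to 0.63) overlapped.

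With AAV8-p21 the change from 8 dpc to 16 dpc was called for Hsd11b1 alone among the 9 genes, beside 3.32% of all tested genes called, with 2.09% higher. Hsd11b1 was at 654, 510 and 636 CPM at 8 dpc, all below the 3 livers at 16 dpc, and rose with a log2 fold change of 1.0 ± 0.205 (adjusted p = 0.0151). The call was lost without the 8 dpc liver labelled 2 (0.90, adjusted p = 0.0795), without the first or second 16 dpc library (0.90 and 0.98, adjusted p = 0.0589 and 0.0612), in a fit of these 2 groups alone (adjusted p = 0.0569) and under total-count scaling (0.43, adjusted p = 0.068). H6pd was at 284, 374 and 359 CPM at 8 dpc, all below the livers at 16 dpc, and was not called (0.57, adjusted p = 0.218). G6pdx was at 8.14, 4.39 and 4.76 CPM at 8 dpc and 3.83, 4.22 and 1.53 CPM at 16 dpc, without overlap and not called (−0.86, adjusted p = 0.323). Under total-count scaling G6pdx was called lower (−1.45, adjusted p = 0.0177). With Tkt, 4 of 9 genes were without overlap, beside 22.9% of all tested genes. Pgd was at 46, 39.7 and 39.2 CPM at 16 dpc, within 0.03 of its 8 dpc level on the log2 scale. Under total-count scaling its change was −0.54 (adjusted p = 0.0923). Between these groups 3 of 6 hepatocyte markers (Alb, Apoa1, Asgr1) and 1 of 4 tested erythroid markers (Alas2) also rose. The summed endothelial level was 124 to 163 CPM at 8 dpc and 170 to 198 CPM at 16 dpc, without overlap and with no marker called, and the part of these in the result was not tested.

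Whether the change from 8 to 16 dpc differed between the viruses was tested as an interaction. No gene was called (0 of 12172, 0%, edgeR; 376 or 3.09% at an unadjusted p under 0.05; 0 by DESeq2). The interaction was −0.78 for Hsd11b1 (unadjusted p = 0.0169), −0.80 for Pgd (0.0458), −1.13 for Rpia (0.0306) and −0.52 for H6pd (0.127), with an adjusted p of 1 in each case. The value for Rpia was −0.54 without the AAV8-p21 8 dpc liver labelled 3. A difference between the viruses in these changes was thus not shown.

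Ratios within a library do not depend on its scaling, and 7 ratios per length were compared in the 6 pairs of groups by an exact two-sided permutation test, which with 3 livers against 3 cannot go below p = 0.1. H6pd to G6pdx was 51.9 ± 12.5 (SD, n = 3) in NP livers, 55.2 ± 13.6 at 8 dpc and 169 ± 34.5 at 16 dpc with AAV8-null. With AAV8-p21 it was 38.3 ± 15.7 at 8 dpc and 122 ± 95.7 at 16 dpc. The latter rests on 1 liver, since the livers were at 70, 63.1 and 232, and without the third the mean was 66.6. The livers at 16 dpc lay above the others with each virus. Pgd to G6pdx moved from 2.58 ± 0.671 in NP livers to 6.81 ± 0.307 at 16 dpc, and Pgd to Tkt from 0.246 ± 0.0164 to 0.692 ± 0.212, both without overlap. The ratio of H6pd to its partner Hsd11b1 was 0.37 ± 0.0526 in NP livers, 0.644 ± 0.17 at 8 dpc and 0.414 ± 0.0957 at 16 dpc with AAV8-null. All 8 dpc livers were above the NP livers, and the livers at 16 dpc overlapped both groups. H6pd to Pgd was lower with AAV8-p21 at both stages without overlap, at 10.4 ± 2.58 against 20 ± 3.27 at 8 dpc and 15.1 ± 3.5 against 24.7 ± 3.92 at 16 dpc. Hsd11b1 to Pgd was lower as well, at 22.3 ± 0.595 against 32.3 ± 8.04 and 43.7 ± 4.76 against 61 ± 11.9. Each separation had the smallest exact permutation p of 0.1, or 0.21 after Benjamini-Hochberg adjustment over 42 comparisons, so none passed the threshold.

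**Figure D4:**
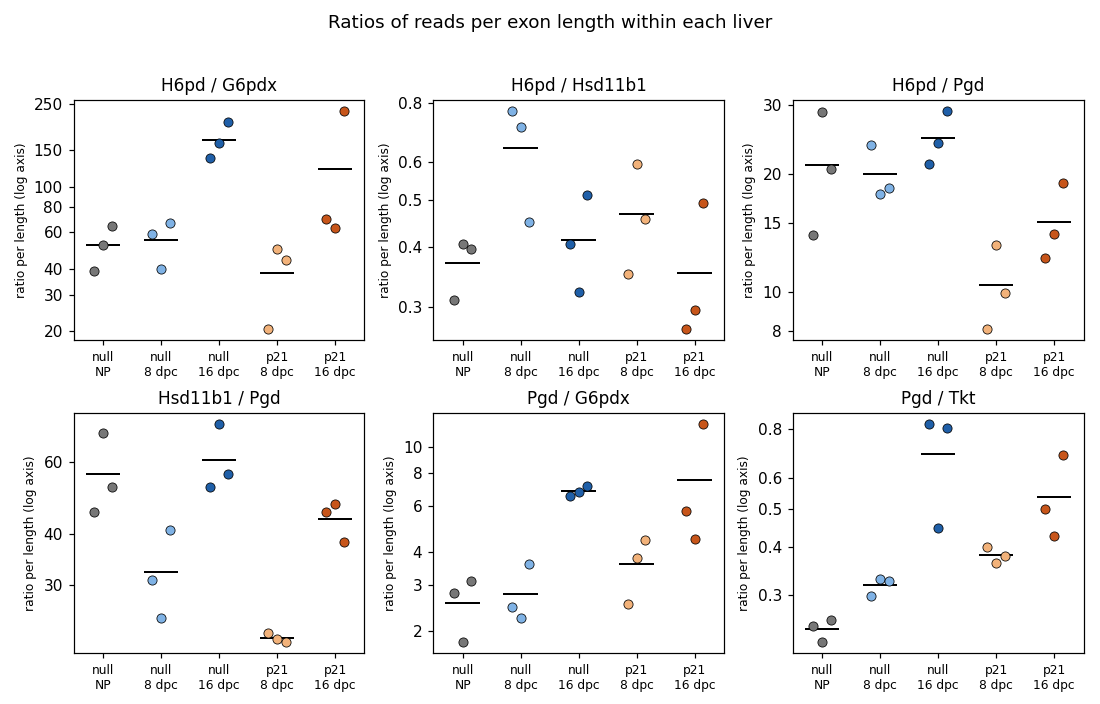
Ratios of reads per exon length within each of the 15 livers (log axes), with lines for the means of 3 livers. The means of H6pd to G6pdx and Pgd to G6pdx are highest at 16 dpc with both viruses, and the H6pd to Pgd ratio of each AAV8-p21 group lies below that of the AAV8-null group of the same stage.

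Genes around the pathway were described from lists by function. Of 13 neighbours in pentose and ribose metabolism, 10 were tested and 1 fell at 16 dpc against NP in AAV8-null livers: Prps2, which makes phosphoribosyl pyrophosphate, at 16.3, 12.5 and 12.2 CPM in NP livers and 7.67, 6.92 and 7.39 CPM at 16 dpc (−0.90, adjusted p = 0.0309). This and the following list counts stand beside the 6.52% of all tested genes called in this comparison. G6pd2, a second mouse gene for glucose 6-phosphate dehydrogenase, and the transketolase-like genes Tktl1 and Tktl2 had too few reads to be tested. Of 10 other NADPH sources, 8 were tested and 1 fell: Mthfd1, an enzyme of folate metabolism, from 203 ± 14.6 to 120 ± 19.3 CPM (−0.75, adjusted p = 0.0342). None of the 9 NADPH users was called in that comparison. Against 8 dpc, Prps2 (−1.24) and Mthfd1 (−0.69) fell as well, together with the NADPH users Cbr1 (−0.99) and Nqo1 (−0.86), at adjusted p = 0.00624 to 0.05. The list medians were −0.15, −0.16 and −0.33 against NP, where the median of all tested genes was −0.03.

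Among 9 genes of endoplasmic reticulum glucose 6-phosphate and glucocorticoid handling, 8 were tested. Serpina6, the plasma carrier of glucocorticoids, rose with AAV8-null from 583, 256 and 340 CPM in the NP livers to 27150, 15820 and 6195 CPM in those at 16 dpc (log2 fold change 5.38 ± 0.802, adjusted p = 0.00116). It also rose between 8 and 16 dpc with AAV8-null (5.84, adjusted p = 0.000878) and with AAV8-p21 (5.12, adjusted p = 0.00243). Srd5a1, a steroid reductase that uses NADPH, fell between 8 and 16 dpc with AAV8-null (−1.70, adjusted p = 0.0464). Slc37a4, the transporter that supplies glucose 6-phosphate to the endoplasmic reticulum, and G6pc, which hydrolyses it there, were not called against NP (−0.62 and 0.77, adjusted p = 0.319 and 0.248). Hsd11b2, which oxidises corticosterone, had too few reads to be tested. With AAV8-p21, the change from 8 to 16 dpc was also called for Prpsap1 (0.92, adjusted p = 0.0133) and, lower, for Me1, the cytosolic malic enzyme (−0.81, adjusted p = 0.0465). None of the tested genes of these 4 lists was called between AAV8-p21 and AAV8-null at either stage.

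The genes whose log2 CPM followed Hsd11b1, H6pd and G6pdx most closely over the 15 libraries were named by Pearson correlation, as a description of these libraries, which share stage and virus. For Hsd11b1 they were Alb (r = 0.966), Vnn3 (0.963) and Dnah11 (0.961). For H6pd they were Ptges (0.915), Atg12 (0.913) and Ccdc38 (0.91), and for G6pdx they were Traf2 (0.934), Adra1b (0.901) and Pdlim4 (0.9). H6pd and Hsd11b1 themselves had r = 0.783 and Spearman's rho = 0.646. The liver highest for H6pd within its group was also highest for Hsd11b1 in 2 of 5 groups, whereas Pgd, Pgls and Taldo1 shared their highest liver in 5 of 5 groups. Those 3 genes were picked as the highest of all pairs, the other pairs sharing it in 0 to 3 groups. The share over all tested genes was not computed.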

How the data were processed

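Libraries were made from 200 ng of liver RNA with a stranded mRNA kit. Per the labels and methods, HISAT2 2.1.0 aligned the reads to mm10 after trimming by cutadapt 1.14, and the authors deposited counts of uniquely mapped reads per protein-coding gene from HTSeq 0.12.4. Groups followed the sample labels. The columns of the 3 AAV8-p21 16 dpc libraries carry other numbers than the labels and were used as unnumbered replicates. Counts were tested with edgeR 4.0.16 (R 4.3.3): TMM scaling, filterByExpr with a minimum count of 10, 1 quasi-likelihood model of 15 libraries, and Benjamini-Hochberg adjustment over 12172 genes, with a gene called at an adjusted p under 0.05. RPKM used GENCODE M21 exon lengths, and single values an exact permutation test on log2(CPM + 0.5). Alternatives were DESeq2 1.42.0, other scalings and filters, the compared groups alone, a replicate block and each library left out. Beyond the 9 genes, those called were named, at most 4 per list. Members and lists were chosen with earlier results of these data known. Libraries are labelled as separate samples of a group, and p-values measure the spread between them. No 2 replicates agreed within sampling noise.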

Additional observations from a re-analysis of the deposited data

How the results depend on the processing

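Of 387 member fold changes refitted with every library kept, 361 stayed on their side of the threshold with their direction or moved by less than 1 SE around 0. Total-count scaling moved the median of all tested genes by −0.68 (AAV8-null 16 dpc against NP), −0.71 (AAV8-null 16 against 8 dpc) and −0.57 (AAV8-p21 16 against 8 dpc), and gave 6150, 6508 and 4317 called genes and 16 for AAV8-p21 against AAV8-null at 16 dpc. Under it 5 members were called at AAV8-null 16 against 8 dpc (Hsd11b1 higher; G6pdx, Pgls, Rpe and Tkt lower) and 3 at AAV8-p21 16 against 8 dpc (G6pdx, Rpia and Tkt, all lower), and uncalled signs turned for Taldo1 (−0.48), Rpia (−0.58) and Rpe (−0.25) against NP, for Taldo1 (−0.70) and Rpia (−0.17) at AAV8-null 16 against 8 dpc, and for Pgd (−0.54), Pgls (−0.43), Taldo1 (−0.34) and Rpe (−0.58) at AAV8-p21 16 against 8 dpc. DESeq2 called 73 genes at 8 dpc against NP, 1207 at 16 dpc against NP, 1362 at 16 against 8 dpc, 135 at 16 dpc and 29 at 8 dpc between the viruses (1 member, H6pd, at 16 dpc; Pgd was added at AAV8-null 16 against 8 dpc) and 802 at AAV8-p21 16 against 8 dpc. The compared groups alone gave 399, 338 (1 member), 5 and 5 genes for AAV8-null 16 dpc against NP and 8 dpc and for the viruses at 16 and 8 dpc, and 0 members for AAV8-p21 16 against 8 dpc. Without a filter, 21 genes were called between the viruses at 16 dpc. The causes were not tested.

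With 1 library left out, called genes ranged from 0 to 92 (8 dpc against NP), 373 to 734 (16 dpc against NP), 258 to 1279 (16 against 8 dpc), 3 to 35 and 2 to 38 (viruses at 16 and 8 dpc) and 159 to 464 (AAV8-p21 16 against 8 dpc), and members called from 1 to 2 at AAV8-null and 0 to 1 at AAV8-p21 16 against 8 dpc. Uncalled signs turned for Pgls between the viruses at 8 dpc (−0.16 to 0.16) and for Rpia at AAV8-p21 16 against 8 dpc (−0.84 to 0.0131), and 44 other uncalled values changed sign by less than 1 SE. Same-numbered livers did not pair (mean correlation of deviations 0.00588, lowest −0.58; 4 of 12 libraries closest to their own number), and the replicate block on the 12 numbered libraries gave 657 called genes at 16 dpc against NP, beside 739 without it, and changed no member's call. A pseudocount of 2 left the number of separated comparisons at 19, and TPM kept all 45 ranks per length. G6pdx and Rpia are limited by depth, with counting errors of 21.8% and 14.4% at their lowest counts.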
